A study of Homo sapiens with 9 samples.

Results

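Insulin restrains the self-digestion of cells, and the 33 genes described here encode the machinery it acts on: the acid hydrolases and membrane proteins of the lysosome, the transcription factors TFEB and TFE3, and the proteins that start and build autophagosomes. They were picked by name for these roles, as rows of a table of read counts for 15983 genes. The rule itself uses no measured values, but the list was chosen with earlier results of these data known. All 33 were found, and all 33 passed the filter on low counts that left 12665 genes for testing. The cells were KGN, an established human granulosa cell tumour line used as a model of the ovarian granulosa cells that surround the oocyte, with the genotype given as WT. All cultures were fasted for 12 h and then kept for 72 h in 1 of 3 conditions: solvent, insulin at 0.5 µg/ml or insulin at 1 µg/ml. Each condition had 3 libraries of total RNA, 9 in all. The solvent cells were fasted too, so each comparison sets insulin after a fast against solvent after a fast, and no unfasted culture was analysed here. Whether libraries of a condition came from separate cultures is not stated in the labels. Every p-value is therefore set against a spread between libraries that may be technical.

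Autophagy encloses cytoplasm in a double membrane, the autophagosome, and delivers it to the lysosome, where hydrolases that work in acid degrade it. Through AKT and the kinase complex mTORC1, insulin signalling is known to phosphorylate and hold back ULK1, the kinase that starts autophagy, and to keep TFEB and TFE3 in the cytoplasm. When mTORC1 is inactive these factors enter the nucleus and bind a motif known as CLEAR, built on the letters CACGTG, in the promoters of many lysosomal genes. Much of this control acts on proteins, and the data here are transcript levels only.

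Transcripts of the 33 genes were present at steady levels in every library, and no gene among them was called different between conditions. At a Benjamini-Hochberg adjusted p under 0.05 over the 12665 genes, edgeR's quasi-likelihood test called 0 of 33 in each of 3 comparisons: 0.5 µg/ml over solvent, 1 µg/ml over solvent and 1 over 0.5 µg/ml. The share called among all tested genes was also 0% in each. DESeq2 and limma likewise called 0 of 33 in each. The comparisons share libraries, each condition being in 2 of the 3, and are given side by side for that reason. The 95% interval of the fold change lay within 1.25-fold either way for 33 of 33 genes in every comparison. This held for 70.2%, 72.9% and 70.6% of all tested genes in the same order. Of the 33 genes, 30 lay above the median level of tested genes, and no share was computed for genes of like abundance. Whether the difference in share comes from count depth was not tested. The outermost bounds were 0.820 for ATG12 and 1.22 for ATG7 at 0.5 µg/ml over solvent, 0.849 for TFEB and 1.18 for GLA at 1 µg/ml over solvent, and 0.845 for ULK1 and 1.21 for ATG12 at 1 over 0.5 µg/ml. Each interval is for 1 gene, without adjustment for their number, and shifts smaller than its width were not resolved. In bulk RNA such as this, fewer cells with a transcript and less of it per cell cannot be told apart.

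The libraries were deep and alike in total, from 18965722 to 20446405 counts, and the 33 genes took 0.877% to 0.932% of each. For a gene with no count in the shallowest library the upper limit is 3 counts, which is 0.158 CPM (counts scaled to library size). Such a limit covers counting error only. Of 13 listed markers of granulosa cells, all 13 passed the filter on low counts, among them FOXL2 with 4720 counts and GATA4 with 30846 counts over the 9 libraries. The lowest were INHA, the inhibin alpha subunit that granulosa cells secrete, with 118 counts, and NR5A2 with 158. Some markers of other cells were at or near 0, with 1 count of CD163 (macrophages), 7 of EPCAM (epithelium), 3 of CDH5 (endothelium) and 1 of CYP17A1 (theca) in all 9 libraries together. Other listed markers of such cells were well detected. Among them were KRT18 (epithelium) with 315485 counts, ACTA2 (smooth muscle) with 72791, CD68 (macrophages) with 10442 and KDR (endothelium) with 3289. Library 1 of the 0.5 µg/ml group stood apart from its group. Its chi-square per degree of freedom was 8.01 and 8.46 against the other libraries at that dose, which gave 2.20 against each other. The highest chi-square per degree of freedom was 6.71 within solvent and 5.28 within 1 µg/ml. In those groups too the highest was that of libraries 1 and 3. The lowest was that of libraries 2 and 3, at 3.82 and 2.62. Library 1 at 0.5 µg/ml held the highest of the 9 values for 7 of the 33 genes and the lowest for 9. Library 1 of solvent held the highest for 1 and the lowest for 5. Library 1 at 1 µg/ml held the highest for 3 and the lowest for 8.

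The promoters of the 33 genes were read for the letters that TFEB and TFE3 bind. RefSeq promoters (250 bases before to 50 bases after the start of each gene, build GRCh38.p14) were matched for 27 of the 33 genes. CTSB, HEXA, ASAH1, PSAP, LAMP2 and UVRAG were not matched. CACGTG, which reads the same on both strands, was in 6 of the 27 promoters (22.2%). It was in 23.3% of the promoters of other lysosome and autophagy genes, 10.2% of those of tested genes and 7.43% of all 27305 promoters. TCACGTG, which contains it, searched on both strands, was in the same 6 (22.2%), in 20.9% of the promoters of other lysosome and autophagy genes listed further on, in 5.9% of those of tested genes and in 3.82% of all. The full palindrome GTCACGTGAC, which contains both, was in 2 of the 27 (7.41%). It was in 3.88% of the promoters of the other lysosome and autophagy genes, 0.768% of those of tested genes and 0.381% of all. The genes were picked for their roles, and the motif is known from promoters of lysosomal genes. A share above that of tested genes is therefore no separate result. The 6 genes were CTSA, CTSD, GAA, NEU1, LAMP1 and MCOLN1, with 14 cores between them. LAMP1 alone held 6, and 9 of the 14 lay within 100 bases of the start. A match of letters is a description of the promoter and does not show binding. The windows of 30 bases below are shown because these are the genes whose promoters carry the motif of the pathway. Capitals mark the core together with the T before it and the A after it where these are present.
GAA, chr17:80101493-80101522, plus strand: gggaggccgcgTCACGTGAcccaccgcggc
GAA, chr17:80101538-80101567, plus strand: gctcccgccggTCACGTGAcccgcctctgc
MCOLN1, chr19:7522571-7522600, plus strand: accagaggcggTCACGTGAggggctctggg
MCOLN1, chr19:7522598-7522627, plus strand: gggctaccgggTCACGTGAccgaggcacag
LAMP1, chr13:113297199-113297228, plus strand: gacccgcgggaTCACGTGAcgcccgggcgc
CTSA, chr20:45891298-45891327, plus strand: ggcgccggagtTCACGTGActcgtacacat
CTSD, chr11:1763957-1763986, minus strand: gccggccgcgccCACGTGAccggtccgggt
NEU1, chr6:31862930-31862959, minus strand: atgctgcgtgaTCACGTGggaggagatgag
Both GAA windows and the second MCOLN1 window hold the full palindrome, the GAA cores centred at -73 and -28 and that MCOLN1 core at -11 bases from the start. The CTSD window holds the core without the T before it but with the A after it, which is TCACGTG on the other strand.

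**Figure D1:**
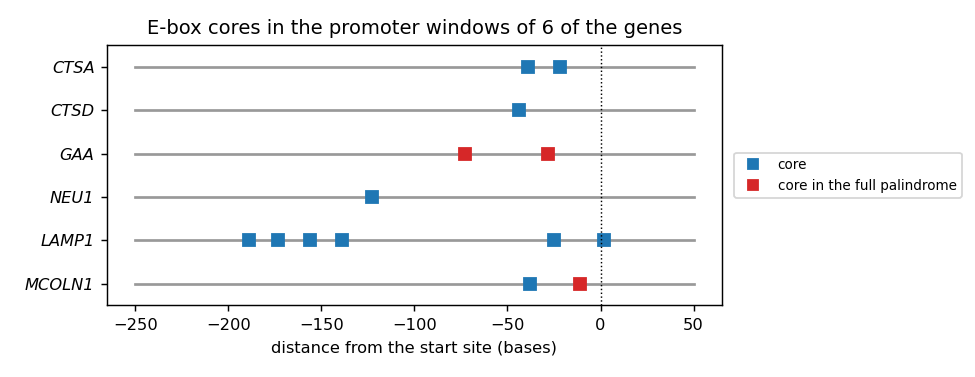
Positions of the 14 CACGTG cores in the promoters of the 6 genes that carry one, each point a core and the x axis its distance in bases from the RefSeq start of the gene. LAMP1 has 6 cores spread over its promoter, and 9 of the 14 points lie within 100 bases of the start.

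Levels between genes were compared per gene length, as FPKM (fragments scaled to gene length and library size), averaged over the 9 libraries. The 33 genes spanned 682 FPKM for CTSD to 2.33 FPKM for UVRAG, with a median of 29.03 FPKM against 6.83 FPKM over all tested genes, and 30 of 33 lay above that median. By role, the median level was 166 FPKM for the 5 activator and membrane genes, 70.2 FPKM for the 5 genes of the ATG8 family and the cargo receptor SQSTM1 together, 65.8 FPKM for the 12 hydrolases, 24.5 FPKM for TFEB and TFE3, 15.01 FPKM for the 5 initiation genes and 9.11 FPKM for the 4 conjugation genes. The roles overlapped, and MCOLN1, a calcium channel of the lysosomal membrane, and TFEB stood among the lowest genes at 8.63 and 5.11 FPKM. CTSD, the aspartic protease cathepsin D, had 682 ± 24.8 FPKM (SD, n = 9), and PSAP, the precursor of the saposins that help hydrolases act on sphingolipids, had 571 ± 15.6 FPKM. SQSTM1, LAMP1 and CTSZ followed at 283 ± 13.0, 270.2 ± 5.74 and 256 ± 6.17 FPKM. The order is not fixed everywhere. Of the 32 pairs of neighbours, 18 had ranges over the 9 libraries that overlapped, among them SQSTM1 with LAMP1, LAMP1 with CTSZ, and every neighbouring pair from GABARAPL1 down to GLA.

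Levels differed within families as well. TFE3, at 43.9 ± 1.29 FPKM, stood above TFEB, at 5.11 ± 0.382 FPKM, with no overlap over 9 libraries. Of the ATG8 proteins, which coat the autophagosome membrane, GABARAP had 150.4 ± 7.95 FPKM, MAP1LC3B (the common marker LC3B) 70.2 ± 2.61 FPKM, GABARAPL2 37.4 ± 2.36 FPKM and GABARAPL1 20.4 ± 0.902 FPKM. Of the conjugation genes, ATG5 had 15.3 ± 0.685 FPKM and ATG7, the E1-like enzyme that activates both ATG12 and the ATG8 proteins, 3.81 ± 0.262 FPKM. The gene length behind a level is the authors' own. It was 9388 bases for LAMP2, whose GENCODE 29 exons join to 5526 bases, and 8477 against 6352 bases for UVRAG. These FPKM values depend on the annotation.

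**Figure D2:**
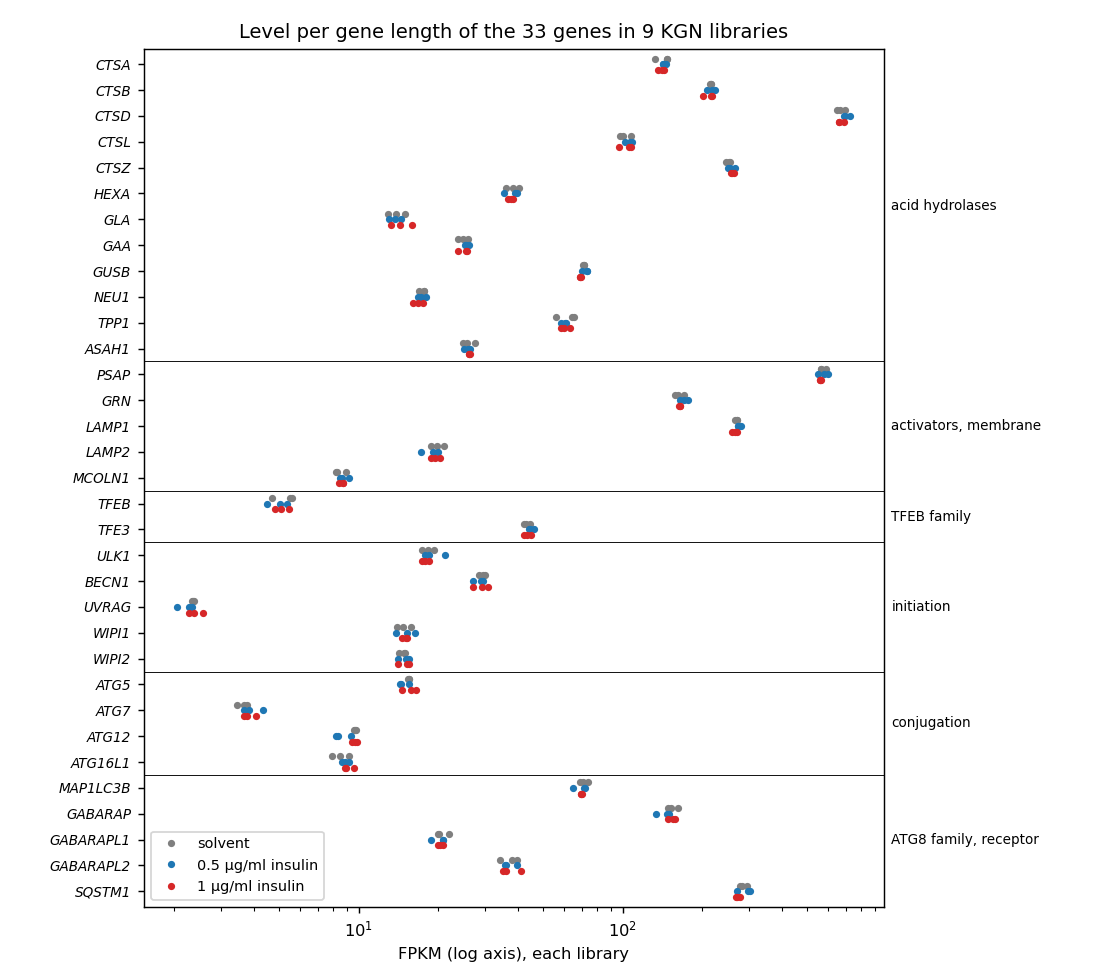
Level of each of the 33 genes in FPKM (log axis) in the 9 libraries, 3 points each for solvent, 0.5 µg/ml and 1 µg/ml insulin from top to bottom within a gene, with genes grouped by role. CTSD is highest at 682 FPKM and UVRAG lowest at 2.33 FPKM, and the points of 0.5 µg/ml and solvent overlap for all but 3 genes.

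Changes between conditions are given as log2 fold changes of CPM scaled by the trimmed mean of M values, with the standard error, and levels beside them as that CPM in each library. For scale, the median absolute log2 fold change of the 33 genes was 0.0456 at 0.5 µg/ml over solvent, against 0.066 for all tested genes. It was 0.0237 against 0.0481 at 1 µg/ml over solvent, and 0.0457 against 0.0614 at 1 over 0.5 µg/ml. The spread between libraries of a condition had a median SD of 0.0601 on the log2 scale for the 33 genes. It was 0.0958 for all tested genes and 0.0641 for the 4521 tested genes with at least 47.1 CPM. That floor is the lower quartile of the 33 genes, which were not themselves held to it, so these sets are not matched in abundance. The SD between libraries was under 1.5 times the error of counting alone for 12 of the 33 genes. Over all 33 it ran from 0.722 times that error for MCOLN1 to 5.53 times for SQSTM1.

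Among the acid hydrolases, no member passed the test in any comparison. CTSD had 1340.2, 1428 and 1362 CPM in solvent, 1511, 1425 and 1442 CPM at 0.5 µg/ml, and 1347, 1413 and 1357 CPM at 1 µg/ml. All 3 libraries at 1 µg/ml were below all 3 at 0.5 µg/ml, while solvent overlapped with 1 µg/ml and, through 1 library, with 0.5 µg/ml. The log2 fold change was 0.084 ± 0.045 at 0.5 µg/ml over solvent (unadjusted p = 0.0749, adjusted p = 0.792, edgeR) and -0.0046 ± 0.045 at 1 µg/ml over solvent. It was -0.088 ± 0.045 at 1 over 0.5 µg/ml (unadjusted p = 0.0614, adjusted p = 0.85, edgeR). Without library 2 of solvent the value of CTSD at 0.5 µg/ml over solvent was 0.11 (unadjusted p = 0.0393, adjusted p = 0.881, edgeR). With each library left out in turn that value ran from 0.058 to 0.11. GUSB, beta-glucuronidase, had 157, 155 and 156 CPM in solvent, 162, 154 and 162 CPM at 0.5 µg/ml, and 149.8, 152 and 150.4 CPM at 1 µg/ml. Its 3 values at 1 µg/ml were the lowest of the 9. GUSB had log2 fold changes of -0.049 ± 0.044 over solvent (adjusted p = 0.9999, edgeR) and -0.078 ± 0.044 over 0.5 µg/ml (adjusted p = 0.852, edgeR). CTSZ, the carboxypeptidase cathepsin Z, had 383, 369 and 377 CPM in solvent, 381, 384 and 402 CPM at 0.5 µg/ml, and 386, 395 and 388 CPM at 1 µg/ml. All 3 of its values at 1 µg/ml were above all 3 in solvent, by a log2 fold change of 0.049 ± 0.042 (adjusted p = 0.9999, edgeR).

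CTSL, the cysteine protease cathepsin L, had 174, 157 and 161 CPM in solvent, 165, 176 and 172 CPM at 0.5 µg/ml, and 155, 173 and 170.4 CPM at 1 µg/ml. Its 3 conditions overlapped. CTSL had log2 fold changes of 0.061 ± 0.052 at 0.5 µg/ml over solvent, 0.021 ± 0.052 at 1 µg/ml over solvent and -0.040 ± 0.052 at 1 over 0.5 µg/ml. The other 8 hydrolases were CTSA (cathepsin A, which also protects neuraminidase), CTSB (cathepsin B), HEXA (the alpha subunit of beta-hexosaminidase A), GLA (alpha-galactosidase A), GAA (acid alpha-glucosidase, which degrades glycogen), NEU1 (neuraminidase 1), TPP1 (tripeptidyl peptidase 1) and ASAH1 (acid ceramidase). Their log2 fold changes ran from -0.040 for TPP1 to 0.060 for GAA at 0.5 µg/ml over solvent, from -0.053 for NEU1 to 0.060 for GLA at 1 µg/ml over solvent, and from -0.060 for NEU1 to 0.065 for GLA at 1 over 0.5 µg/ml. Without library 1 of solvent TPP1 had -0.11 at 0.5 µg/ml over solvent (unadjusted p = 0.041, adjusted p = 0.467, edgeR). Over all 12 hydrolases the median log2 fold change was 0.022 at 0.5 µg/ml over solvent with 8 of 12 above 0, -0.014 at 1 µg/ml over solvent with 5 of 12 above 0, and -0.042 at 1 over 0.5 µg/ml with 4 of 12 above 0.

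The lysosomal membrane and activator genes did not pass the test either. LAMP1, the abundant glycoprotein that lines the lysosomal membrane, had 622, 619 and 612 CPM in solvent, 651, 628 and 633 CPM at 0.5 µg/ml, and 595, 620.4 and 608 CPM at 1 µg/ml. The 3 values at 0.5 µg/ml were the highest of the 9. LAMP1 had a log2 fold change of 0.046 ± 0.041 at 0.5 µg/ml over solvent (adjusted p = 0.844, edgeR). That of 1 over 0.5 µg/ml was -0.069 ± 0.041 (adjusted p = 0.852, edgeR). LAMP2, its relative that is also needed for chaperone-mediated autophagy, had 177, 185 and 196 CPM in solvent, 164, 187 and 181 CPM at 0.5 µg/ml, and 175, 182 and 189.9 CPM at 1 µg/ml. The lowest value was library 1 at 0.5 µg/ml, and the 3 conditions overlapped. LAMP2 had log2 fold changes of -0.072 ± 0.055 at 0.5 µg/ml over solvent and -0.030 ± 0.055 at 1 µg/ml over solvent. MCOLN1, the lysosomal calcium channel TRPML1, had 17.1, 18.6 and 17.2 CPM in solvent, 19.4, 18.1 and 17.9 CPM at 0.5 µg/ml, and 18.1, 18.1 and 17.4 CPM at 1 µg/ml. Its conditions overlapped. MCOLN1 had log2 fold changes of 0.064 ± 0.078 at 0.5 µg/ml over solvent and 0.021 ± 0.078 at 1 µg/ml over solvent. PSAP had log2 fold changes of 0.021 ± 0.044 at 0.5 µg/ml over solvent and -0.031 ± 0.044 at 1 µg/ml over solvent. GRN, progranulin, which is processed in the lysosome, had 0.076 ± 0.045 and 0.0095 ± 0.045 in the same comparisons. Its 3 values at 1 µg/ml (413, 417 and 414 CPM) were below its 3 values at 0.5 µg/ml (449, 419 and 434 CPM).

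Neither transcription factor passed the test in any comparison. TFE3 had 137, 139 and 144 CPM in solvent, 151, 143 and 145 CPM at 0.5 µg/ml, and 137, 145 and 140.1 CPM at 1 µg/ml. Library 1 at 0.5 µg/ml was the highest and the conditions overlapped. TFE3 had log2 fold changes of 0.066 ± 0.046 at 0.5 µg/ml over solvent and 0.0085 ± 0.046 at 1 µg/ml over solvent. TFEB had 18.97, 19.2 and 16.1 CPM in solvent, 18.5, 17.4 and 15.5 CPM at 0.5 µg/ml, and 17.4, 16.6 and 18.6 CPM at 1 µg/ml. Its conditions overlapped, and the log2 fold changes of TFEB were -0.075 ± 0.092 and -0.044 ± 0.092 in the same comparisons. Its 95% intervals reached from 0.830 to 1.08 in fold at 0.5 µg/ml over solvent and from 0.849 to 1.11 at 1 µg/ml over solvent. Nuclear entry, by which mTORC1 controls both factors, is not seen in transcript counts.

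**Figure D3:**
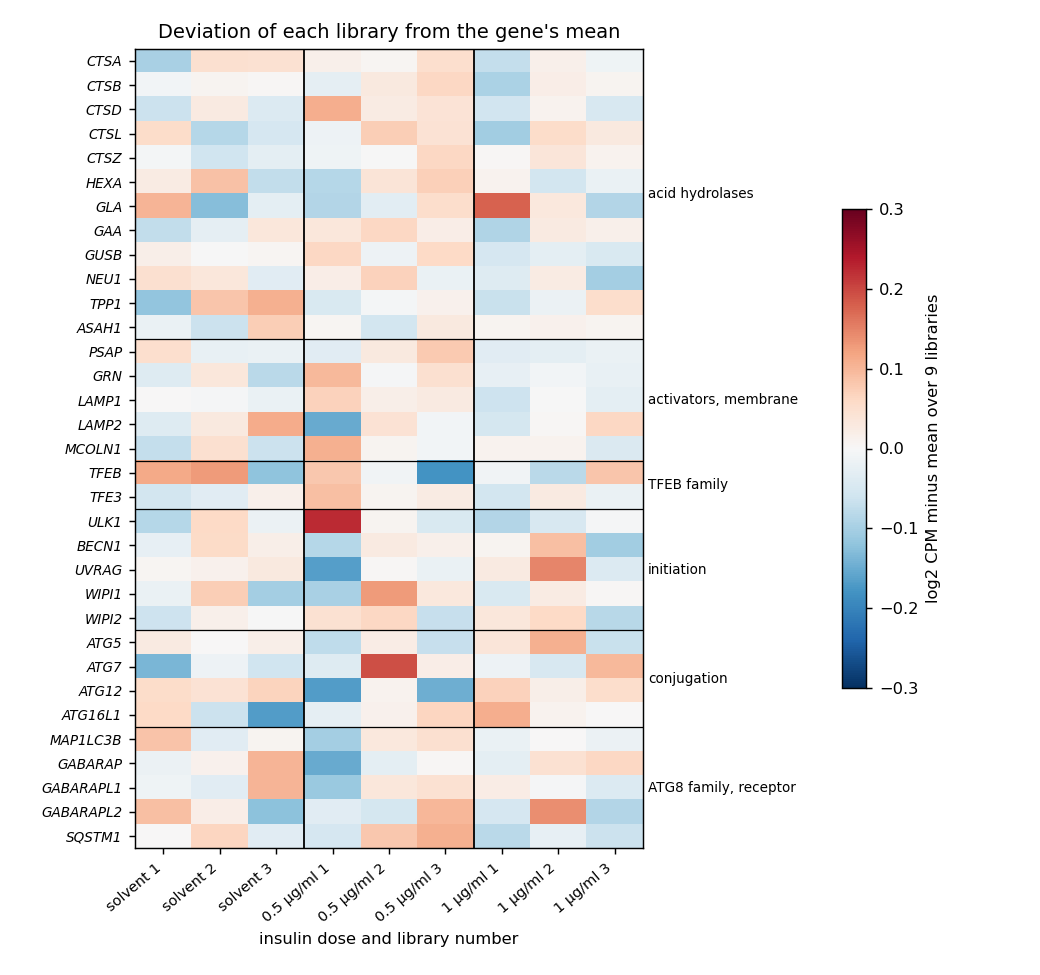
Deviation of each of the 33 genes in each library from that gene's mean over the 9 libraries, on the log2 CPM scale, with genes in rows grouped by role and libraries in columns ordered solvent, 0.5 µg/ml and 1 µg/ml. Library 1 at 0.5 µg/ml holds the highest value of 7 genes and the lowest of 9, and library 1 at 1 µg/ml the lowest of 8. ATG12 is lowest in libraries 1 and 3 at 0.5 µg/ml.

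Of the initiation genes, ULK1, the kinase that starts autophagy, had 93.6, 103 and 98.2 CPM in solvent, 116, 99.9 and 96.3 CPM at 0.5 µg/ml, and 93.5, 96.0 and 99.1 CPM at 1 µg/ml. Library 1 at 0.5 µg/ml was the highest of the 9, and the other libraries of the 3 conditions overlapped. The log2 fold change was 0.080 ± 0.062 at 0.5 µg/ml over solvent and -0.11 ± 0.062 at 1 over 0.5 µg/ml (adjusted p = 0.852, edgeR). Without that library the value over solvent was -0.0057 and that of 1 over 0.5 µg/ml was -0.027. Without library 3 at 0.5 µg/ml the value of 1 over 0.5 µg/ml was -0.17 (unadjusted p = 0.0215, adjusted p = 0.862, edgeR). BECN1, the Beclin 1 subunit of the lipid kinase complex that marks the growing membrane, had 64.4, 68.1 and 66.3 CPM in solvent, 61.7, 66.8 and 66.2 CPM at 0.5 µg/ml, and 65.9, 69.7 and 60.9 CPM at 1 µg/ml. Its conditions overlapped. BECN1 had log2 fold changes of -0.031 ± 0.059 at 0.5 µg/ml over solvent and -0.017 ± 0.059 at 1 µg/ml over solvent. UVRAG, a partner of Beclin 1, had 19.8, 19.9 and 20.1 CPM in solvent, 17.6, 19.8 and 19.4 CPM at 0.5 µg/ml, and 20.1, 21.8 and 19.2 CPM at 1 µg/ml. Its 3 values at 0.5 µg/ml were below its 3 in solvent, and the margin between the nearest libraries was 19.78 against 19.81 CPM. The log2 fold change at 0.5 µg/ml over solvent was -0.075 ± 0.079 (adjusted p = 0.867, edgeR). WIPI1 and WIPI2, which bind the lipid made by the Beclin 1 complex, had log2 fold changes of 0.038 ± 0.063 and 0.030 ± 0.057 at 0.5 µg/ml over solvent, and 0.0088 ± 0.063 and 0.020 ± 0.057 at 1 µg/ml over solvent.

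The smallest unadjusted p of the 33 genes belonged to ATG12, the ubiquitin-like protein that is joined to ATG5 and, with ATG16L1, directs the lipidation of ATG8 proteins. It had 39.1, 38.9 and 39.5 CPM in solvent, 33.6, 38.0 and 34.1 CPM at 0.5 µg/ml, and 39.5, 38.2 and 39.1 CPM at 1 µg/ml. Libraries 1 and 3 at 0.5 µg/ml were the lowest of the 9, library 2 of that dose lay just under the other 6, and the solvent values lay within the range of those at 1 µg/ml. The log2 fold change was -0.15 ± 0.064 at 0.5 µg/ml over solvent, a fold of 0.899 (unadjusted p = 0.0253, adjusted p = 0.792, edgeR). It was 0.15 ± 0.064 at 1 over 0.5 µg/ml (unadjusted p = 0.0333, adjusted p = 0.85, edgeR). Both comparisons use the same 0.5 µg/ml libraries, so their opposite signs are not separate evidence. Without library 1 at 0.5 µg/ml the first was -0.12 (unadjusted p = 0.0838, edgeR). Without library 2 at that dose it was -0.21 (unadjusted p = 0.0055, adjusted p = 0.686, edgeR). Over the 3 conditions together the F-test gave ATG12 an unadjusted p of 0.0442. The transcript of ATG12 shares 8.72% of its length with that of AP3S1.

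Of the other conjugation genes, ATG7 had 22.9, 25.0 and 24.2 CPM in solvent, 24.6, 28.9 and 25.6 CPM at 0.5 µg/ml, and 25.0, 24.4 and 27.0 CPM at 1 µg/ml. Library 2 at 0.5 µg/ml was the highest and the conditions overlapped. ATG7 had log2 fold changes of 0.13 ± 0.076 at 0.5 µg/ml over solvent and 0.082 ± 0.077 at 1 µg/ml over solvent. The first was 0.061 without library 2 at 0.5 µg/ml. Without library 1 at that dose it was 0.18 (unadjusted p = 0.0369, adjusted p = 0.724, edgeR). ATG16L1 had 31.2, 28.6 and 26.6 CPM in solvent, 29.4, 30.2 and 31.3 CPM at 0.5 µg/ml, and 32.2, 30.1 and 29.9 CPM at 1 µg/ml. The conditions overlapped. ATG16L1 had log2 fold changes of 0.073 ± 0.070 at 0.5 µg/ml over solvent and 0.097 ± 0.070 at 1 µg/ml over solvent. Without library 1 of solvent the second was 0.16 (unadjusted p = 0.045, adjusted p = 0.999, edgeR). With each library left out in turn it ran from 0.042 to 0.16. ATG5, with all libraries, had -0.056 ± 0.061 at 0.5 µg/ml over solvent and 0.011 ± 0.061 at 1 µg/ml over solvent.

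Of the ATG8 family, GABARAP had 196, 199.98 and 213 CPM in solvent, 178, 194 and 199 CPM at 0.5 µg/ml, and 194, 205 and 207 CPM at 1 µg/ml. Library 1 at 0.5 µg/ml was the lowest and the conditions overlapped. GABARAP had log2 fold changes of -0.091 ± 0.051 at 0.5 µg/ml over solvent (adjusted p = 0.807, edgeR) and -0.0068 ± 0.051 at 1 µg/ml over solvent. The first was -0.047 without library 1 at 0.5 µg/ml. Without library 3 at that dose it was -0.12 (unadjusted p = 0.0422, adjusted p = 0.78, edgeR). MAP1LC3B had 159.6, 147 and 151 CPM in solvent, 140.3, 154 and 156 CPM at 0.5 µg/ml, and 148, 151 and 149 CPM at 1 µg/ml. The lowest value was again that of library 1 at 0.5 µg/ml, and the highest was that of a solvent library. MAP1LC3B had log2 fold changes of -0.026 ± 0.050 at 0.5 µg/ml over solvent and -0.032 ± 0.050 at 1 µg/ml over solvent. GABARAPL1, known as a target of FOXO factors in mouse muscle, had 46.6, 46.0 and 50.5 CPM in solvent, 43.6, 48.2 and 48.6 CPM at 0.5 µg/ml, and 47.8, 47.0 and 45.7 CPM at 1 µg/ml. Its conditions overlapped. GABARAPL1 had log2 fold changes of -0.028 ± 0.064 and -0.027 ± 0.064 in the same comparisons, and those of GABARAPL2 were 0.0082 ± 0.075 and 0.0068 ± 0.075.

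SQSTM1 encodes p62, the receptor that carries ubiquitinated cargo into autophagosomes and is itself degraded there. It had 924, 965 and 902 CPM in solvent, 891, 976 and 993 CPM at 0.5 µg/ml, and 872, 907 and 882 CPM at 1 µg/ml. The values at 1 µg/ml lay at the low end of the 9, with library 1 at 0.5 µg/ml and 1 solvent library among them, while the other 2 libraries at 0.5 µg/ml were the highest. The log2 fold change was -0.10 ± 0.048 at 1 over 0.5 µg/ml (unadjusted p = 0.0432, adjusted p = 0.85, edgeR). It was -0.068 ± 0.048 at 1 µg/ml over solvent and 0.035 ± 0.048 at 0.5 µg/ml over solvent. Without library 1 at 0.5 µg/ml that of 1 over 0.5 µg/ml was -0.15 (unadjusted p = 0.00158, adjusted p = 0.291, edgeR), which still missed the threshold. With each library left out in turn, the value of 1 over 0.5 µg/ml ran from -0.15 to -0.073. The transcript of SQSTM1 shares sequence with MRNIP, on the opposite strand, over 53.2% of its length. How strands were counted is not given, so reads of both genes may be mixed.

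**Figure D4:**
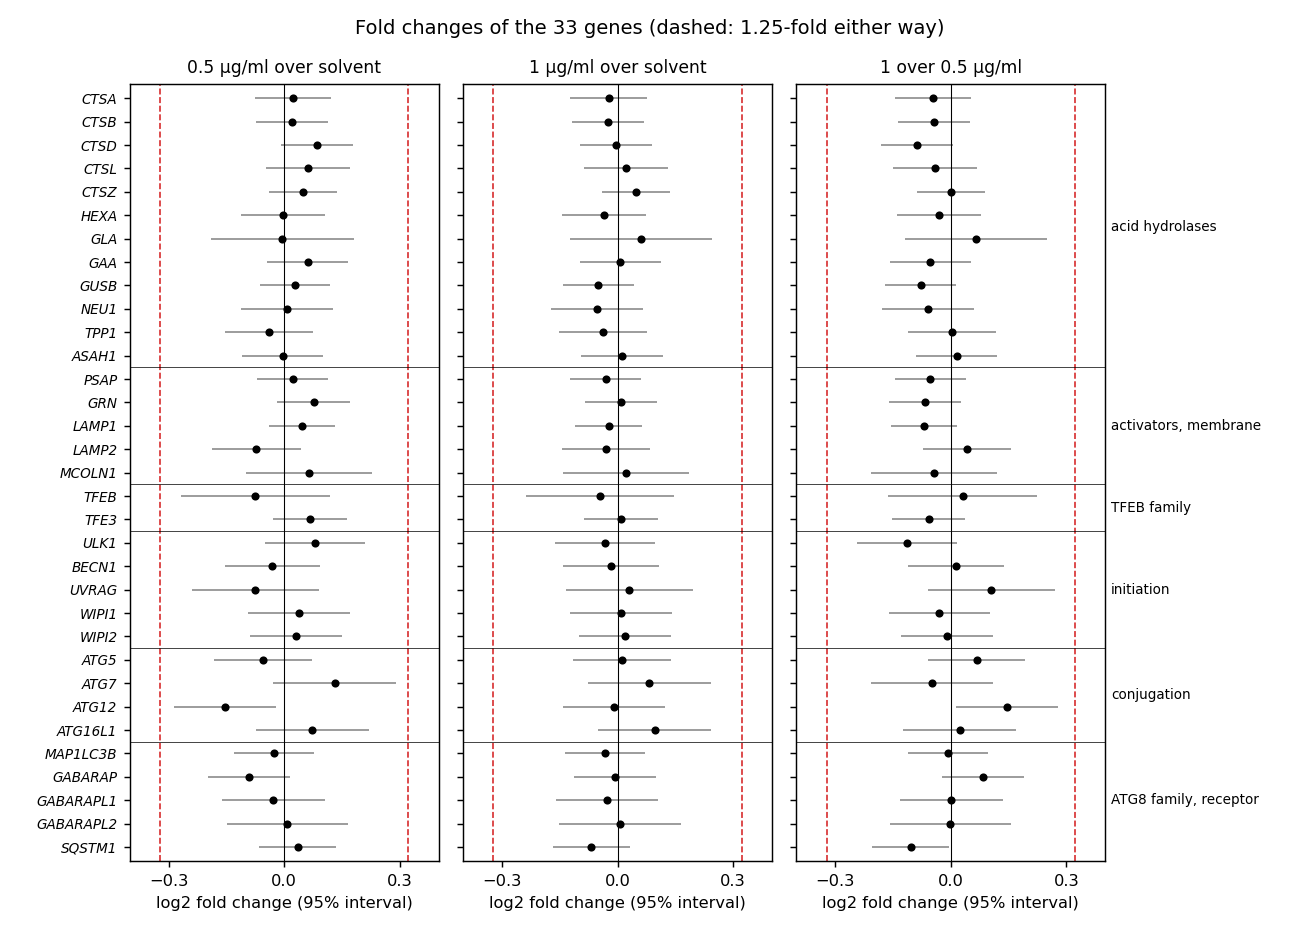
Log2 fold change of each of the 33 genes with its 95% interval in the 3 comparisons (0.5 µg/ml over solvent, 1 µg/ml over solvent, 1 over 0.5 µg/ml), with dashed lines at 1.25-fold either way. All intervals lie inside the dashed lines, and only those of ATG12 (left and right panels) and SQSTM1 (right panel) leave out 0, without adjustment for the number of genes.

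The counts below set the 33 genes beside all tested genes. At an unadjusted p under 0.05 there was 1 of 33 (3.03%) at 0.5 µg/ml over solvent, where 6.08% of all tested genes passed, 0 of 33 at 1 µg/ml over solvent, where 2.35% passed, and 2 of 33 (6.06%) at 1 over 0.5 µg/ml, where 5.64% passed. DESeq2 gave 2, 0 and 2 of 33 in the same order, and limma 1, 0 and 1. Over the 3 conditions together, edgeR's F-test gave 1 of 33, where 4.43% of all tested genes passed. At 0.5 µg/ml over solvent the 3 values of one condition lay wholly apart from the 3 of the other for 3 of 33 genes (LAMP1 higher, UVRAG and ATG12 lower), against 10.7% of all tested genes. At 1 µg/ml over solvent they did for 2 of 33 (CTSZ higher, GUSB lower), against 7.73%. At 1 over 0.5 µg/ml they did for 5 of 33 (ATG12 higher, CTSD, GUSB, GRN and LAMP1 lower), against 12.2%. The median log2 fold change of the 33 was 0.021 at 0.5 µg/ml over solvent with 20 above 0, against 0.0045 and 51.9% for all tested genes. It was -0.0068 with 15 above 0 at 1 µg/ml over solvent, against -0.00022 and 49.8%. It was -0.029 with 13 above 0 at 1 over 0.5 µg/ml, against -0.0012 and 49.5%. By condition means, 18 of the 33 genes were highest at 0.5 µg/ml, a pattern of 38.4% of all tested genes, 11 were lowest there (35.9%), 2 stepped up with dose (13.6%) and 2 stepped down (12.1%).

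**Figure D5:**
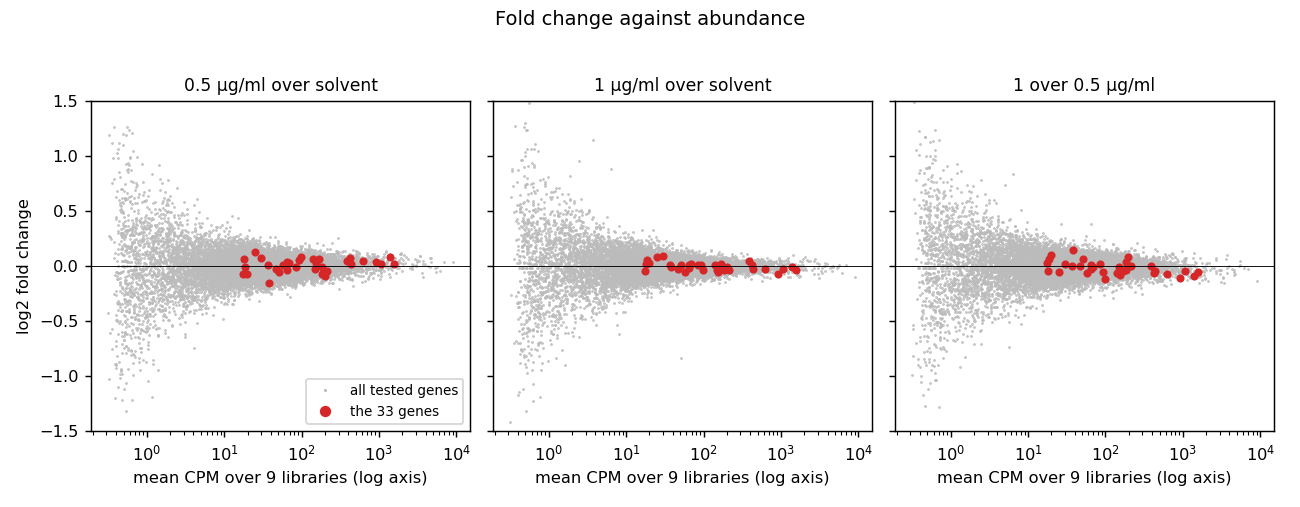
Log2 fold change (y axis) against mean CPM (log x axis) of all 12665 tested genes in grey and of the 33 genes in colour, one panel per comparison; 16 genes lie beyond the axis limit of 1.5 in at least 1 panel and are not drawn. The 33 genes lie close to 0 in all panels, with a median absolute value of 0.0456, 0.0237 and 0.0457 from left to right.

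The 6 genes with a CACGTG core in the promoter were compared with the rest after their values had been seen, so no test is given. At 0.5 µg/ml over solvent their log2 fold changes were all above 0, from 0.0063 for NEU1 to 0.084 for CTSD with a median of 0.053, against a median of 0.029 and 12 of 21 above 0 among the members whose promoter lacks the core. Of the 6 members with no matched promoter, 2 were above 0, with a median of -0.0043. All 6 genes with the core are hydrolase or membrane genes, while those without it also include the TFEB family and autophagy genes. The comparison therefore does not separate motif from role, which was not tested. The hydrolase and activator genes without the core had 0.061 (CTSL), 0.048 (CTSZ), 0.029 (GUSB), 0.076 (GRN), -0.0051 (GLA) and -0.040 (TPP1). At 1 over 0.5 µg/ml, which shares the 0.5 µg/ml libraries, all 6 genes with the core were below 0. They ran from -0.088 for CTSD to -0.043 for MCOLN1, with a median of -0.057. The median was -0.0014 with 10 of 21 above 0 without the core, and -0.0078 with 3 of 6 with no matched promoter. The hydrolase and activator genes without the core had -0.040 (CTSL), 0.00074 (CTSZ), -0.078 (GUSB), -0.066 (GRN), 0.065 (GLA) and 0.0028 (TPP1). At 1 µg/ml over solvent 2 of the 6 genes with the core were above 0, with a median of -0.014. The median was 0.0068 with 11 of 21 above 0 without the core, and -0.027 with 2 of 6 with no matched promoter. Taken as the mean deviation of the 6 genes with the core from their own means, the libraries were at -0.043, 0.021 and -0.013 in solvent, 0.059, 0.031 and 0.018 at 0.5 µg/ml, and -0.051, 0.015 and -0.036 at 1 µg/ml on the log2 scale. The 3 libraries at 0.5 µg/ml were positive, library 1 the most, and overlapped with solvent through library 2 of solvent. Among 27 other lysosome and autophagy genes with TCACGTG in the promoter, 21 were above 0 at 0.5 µg/ml over solvent (77.8%) with a median of 0.036, against 54.5% of the 607 tested genes with this motif and 51.9% of the 9681 whose promoter lacks it. At 1 µg/ml over solvent 17 of those 27 genes were above 0 (63.0%), against 50.7% of tested genes with the motif and 50.1% of those without it. At 1 over 0.5 µg/ml 7 were (25.9%), against 49.6% and 49.4%. Of all 159 tested genes of those lists, with or without the motif, 92, 73 and 68 were above 0 in the same order. The 27 genes were measured in the same 9 libraries as the 6, so their signs are not independent of each other or separate evidence.

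The wider pathway was read from 163 further genes, of which 159 were tested: the V-ATPase that acidifies the lysosome, other hydrolases and membrane proteins, sorting receptors, the mTORC1 signalling machinery on the lysosome, and further autophagy genes and receptors. None of the 159 was called in any comparison by edgeR, DESeq2 or limma. In edgeR 3, 2 and 5 had an unadjusted p under 0.05 at 0.5 µg/ml over solvent, 1 µg/ml over solvent and 1 over 0.5 µg/ml, beside 6.08%, 2.35% and 5.64% of all tested genes. The median log2 fold change over the 159 was 0.012, -0.0036 and -0.015 in that order. Conditions that lie wholly apart are given below only for the genes named, and were not counted over the 159. ATP6V1F (higher) and GLB1 (lower), for example, also lay apart at 1 µg/ml over solvent, as did 7.73% of all tested genes. ATP6V0B, a subunit of the membrane sector of the V-ATPase, had 67.2, 62.9 and 61.0 CPM in solvent, 67.4, 74.8 and 73.5 CPM at 0.5 µg/ml, and 64.7, 63.9 and 59.7 CPM at 1 µg/ml. All 3 values at 0.5 µg/ml were the highest of the 9, library 1 only just. ATP6V0B had log2 fold changes of 0.18 ± 0.059 over solvent (unadjusted p = 0.00791, adjusted p = 0.764, edgeR). At 1 over 0.5 µg/ml the value was -0.20 ± 0.059 (unadjusted p = 0.00354, adjusted p = 0.85, edgeR). Of the 17 V-ATPase genes, 12 were above 0 at 0.5 µg/ml over solvent, 8 at 1 µg/ml over solvent and 7 at 1 over 0.5 µg/ml.

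FNIP1 and FLCN form the complex that lets mTORC1 act on TFEB. FNIP1 had 34.9, 33.2 and 35.5 CPM in solvent, 28.3, 31.6 and 30.5 CPM at 0.5 µg/ml, and 33.1, 34.2 and 33.7 CPM at 1 µg/ml. Its 3 values at 0.5 µg/ml were the lowest of the 9. FNIP1 had a log2 fold change of -0.20 ± 0.064 over solvent (unadjusted p = 0.00632, adjusted p = 0.764, edgeR). FLCN was higher in all 3 libraries at 0.5 µg/ml than in all 3 in solvent, with 0.12 ± 0.064 at 0.5 µg/ml over solvent (adjusted p = 0.807, edgeR) and 34.0, 35.1 and 37.1 CPM at 0.5 µg/ml, against 32.3, 32.3 and 33.4 CPM in solvent. RRAGD, a Rag GTPase known as a TFEB target, had a log2 fold change of -0.20 ± 0.081 at 1 over 0.5 µg/ml (unadjusted p = 0.0225, adjusted p = 0.85, edgeR) and overlapping values in all conditions, from 23.1 to 29.7 CPM. ULK2, the relative of ULK1, had 27.5, 27.1 and 24.9 CPM in solvent, 30.7, 27.1 and 29.7 CPM at 0.5 µg/ml, and 24.8, 24.3 and 25.3 CPM at 1 µg/ml. All 3 of its values at 1 µg/ml were below all 3 at 0.5 µg/ml, by a log2 fold change of -0.24 ± 0.071 (unadjusted p = 0.00326, adjusted p = 0.85, edgeR).

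At 1 µg/ml over solvent the smallest p-values of the wider pathway were those of sorting genes. IGF2R, the mannose 6-phosphate receptor that carries new hydrolases to the lysosome and also binds IGF2, had 364, 359 and 348 CPM in solvent, 358, 340.4 and 343 CPM at 0.5 µg/ml, and 324, 333 and 340.0 CPM at 1 µg/ml. All 3 libraries at 1 µg/ml were below all 3 in solvent, by a log2 fold change of -0.10 ± 0.043 (unadjusted p = 0.0298, adjusted p = 0.9999, edgeR). VPS16, a core subunit of the tethering complexes that fuse vesicles with lysosomes, had 23.9, 23.1 and 21.4 CPM in solvent, 24.9, 25.8 and 23.9 CPM at 0.5 µg/ml, and 26.0, 25.5 and 24.8 CPM at 1 µg/ml. All 3 libraries at 1 µg/ml were above all 3 in solvent, by 0.16 ± 0.071 on the log2 scale (unadjusted p = 0.0379, adjusted p = 0.9999, edgeR). MITF, of the TFEB family, had log2 fold changes of -0.058 ± 0.072 at 0.5 µg/ml over solvent and -0.0025 ± 0.072 at 1 µg/ml over solvent, and TFEC, with 70 counts over the 9 libraries, was not tested.

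Some of these counts may hold reads of other genes or lack reads shared with them. Neither the strand setting nor the treatment of reads with several matches is given. Over stretches of at least 100 bases with at least 97% identity, GABARAP shared 74.7% of its transcript with other transcripts, CTSD 61.5%, CTSA 45.9%, ATG7 32.2%, WIPI1 27.1%, BECN1 16.7%, TPP1 15%, GABARAPL1 13.4% and MAP1LC3B 13.3%. For MAP1LC3B the sharer was MAP1LC3B2, a near copy of its coding sequence, and for ATG7 it was VGLL4. The largest sharers of GABARAP (AC120057.2), CTSD (AC068580.4) and TPP1 (AC091564.7) overlap these genes on the same strand. That of GABARAPL1 (AC115676.1) lies on the opposite strand. None of these AC-numbered sharers is among the genes counted, while MAP1LC3B2 and VGLL4 are. The effect of these overlaps on the counts was not tested.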

How the data were processed

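RNA-seq libraries of KGN cells were measured in 3 conditions with 3 libraries each. The authors deposited whole-number read counts per gene symbol and, for every gene and library, FPKM values. Per the submitters' processing notes the tools were Trimmomatic, HTSeq and DESeq, with no version or role, and the build was hg38. Not given in the sources used here are the aligner, the annotation, how strands were counted and what was done with reads of several matches. The deposited FPKM values are the deposited counts over gene length and library total: the implied length was whole within 0.01 for 11053 of 11053 genes that had 50 or more counts in all libraries. FPKM was used for levels between genes, counts for every comparison.

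Counts were tested with edgeR 4.0.16 (R 4.3.3): filterByExpr with its minimum count of 10 and total of 15, scaling by the trimmed mean of M values, and a quasi-likelihood fit of all 9 libraries with a term per condition. P-values were adjusted by Benjamini-Hochberg over 12665 genes, with a threshold of 0.05. Standard errors are the log2 fold change over the root of its F statistic, and the common biological coefficient of variation was 5.39%. The procedure was first tested on simulated data. Alternatives were DESeq2 1.42.0, limma 3.58.1 on log2(FPKM + 0.5), other scaling and filters, only the 2 conditions compared, the replicate number as a block, and leaving out each library. Replicate numbers were not taken to pair the libraries: the correlation of deviations was over 0.1 for 1 of 9 same-numbered pairs.

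The 33 genes and the lists of other pathway genes and markers were chosen with earlier results of these data known. All 33 are accounted for. Described in full are the 4 with the smallest p in each comparison, and TFEB, TFE3, MCOLN1, LAMP1, LAMP2, CTSD, CTSL, SQSTM1, MAP1LC3B, GABARAPL1, ULK1 and BECN1. Of the other pathway genes these are the 2 with the smallest p in each comparison, and RRAGD, FLCN, MITF and TFEC. Among the 33, LAMP1, UVRAG, GRN and further genes whose conditions did not overlap are named for that reason. Other pathway genes were not named on that ground. Shared sequence was found with blastn 2.17.0 on GENCODE 29 transcripts, and promoter sequences are those of RefSeq. Every value column matched a library.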

Additional observations from a re-analysis of the deposited data

How the results depend on the processing

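None of the 33 genes was called in any of the 3 comparisons or in the F-test under any alternative run, including DESeq2, limma and each library left out. Counts of all genes called did move: without a filter on low counts edgeR called 6 genes at 0.5 µg/ml over solvent, 3 at 1 µg/ml over solvent and 4 at 1 over 0.5 µg/ml, none of them among the 33. With 1 library left out they ran from 0 to 1 at 0.5 µg/ml over solvent and from 0 to 2 at 1 over 0.5 µg/ml, and stayed at 0 at 1 µg/ml over solvent; the cause was not tested. The median log2 fold change of the 33 genes ran, with 1 library left out, from 0.0047 to 0.031 at 0.5 µg/ml over solvent, from -0.021 to 0.0052 at 1 µg/ml over solvent, which crosses 0, and from -0.038 to -0.0080 at 1 over 0.5 µg/ml. The value nearest to 0 there came without library 2 at 0.5 µg/ml.

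With the replicate number as a block, 0 of 33 genes and 0 of all genes were called in each comparison, and the median log2 fold changes were 0.021 at 0.5 µg/ml over solvent, -0.0063 at 1 µg/ml over solvent and -0.028 at 1 over 0.5 µg/ml. The numbers were not shown to pair the libraries: correlations of same-numbered deviations ran from -0.012 to 0.16, and 7 of 9 libraries correlated best with their own number, which is a hint from the data and not the design. Of 378 values recomputed for the 18 genes described in full under the other settings, 1 had another sign, and of 324 with 1 library left out, 38 had; the largest absolute log2 fold change was 0.157 and 0.211, and the smallest adjusted p was 0.291. For 45 of the 54 fold changes of these genes, none of them called, at least 1 left-out library changed the sign or moved the value by over 1.5 times. For 12 of the 33 genes the spread between libraries was under 1.5 times the counting error, so that depth adds much of their error. With 3 libraries per condition, shifts smaller than the intervals given could not be detected.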
